A study of Homo sapiens with 6 samples.

Results

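The neuronal microtubule genes examined here are 10 genes of young neurons, named one by one in a list: the tubulins TUBB3, TUBA1A and TUBB2B, the doublecortin-domain genes DCX and DCLK1, the microtubule-associated protein genes MAP2, MAPT and MAP1B, and the stathmins STMN1 and STMN2. They are 10 of the 20037 protein-coding genes on chromosomes 1 to 22, X and Y in the RefSeq gene table of GRCh38.p14, and all 10 were found there. A peak belonged to a gene when it touched the gene body or the 5 kb beyond either end. The lists held 45 such peaks in the MYT1L libraries and 1 in the IgG libraries.

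Microtubules are polymers of alpha and beta tubulin that give axons and dendrites their shape and serve as tracks for motor proteins. New neurons switch on particular tubulin isotypes and a set of proteins that bundle or stabilise the polymer (MAP2 in dendrites, tau in axons, doublecortin in migrating neurons), while stathmins bind free tubulin dimers. MYT1L is a zinc-finger transcription factor of neurons, known for repressing non-neuronal programs, and its family binds the short core sequence AAGTT.

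The data are peak lists from CUT&RUN, in which an antibody brings a nuclease to a chromatin protein and the released DNA is sequenced. All 6 libraries came from wild-type H1, a human embryonic stem cell line, at day 30. In 4 of them the antibody was against MYT1L, and the other 2 used IgG, which has no chromatin target and measures background. The series describes the cells as cortical interneurons made from stem cells, but each sample's own cell type entry reads embryonic stem cells. Peak lists hold no RNA level, so the cell type could not be checked against markers. Nothing in the labels says that the libraries came from separate cultures, so their spread may be technical.

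The MYT1L lists held 12310 to 30086 peaks on these chromosomes and the IgG lists 976 and 998. Depth was estimated from the peak statistics as background fragments per kb, which came to 5.99, 2.25, 5.27 and 4.78 in MYT1L replicates 1 to 4 and 1.55 and 0.950 in IgG replicates 1 and 2. Every MYT1L library was therefore deeper than the controls. Each peak has a deposited fold, the ratio at its summit of fragments plus 1 to local background plus 1. The number of fragments stacked at the summit, called the pileup, was recovered as a whole number for all 45 MYT1L peaks at these genes, with a median of 17 and a range of 5 to 41.

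DCX had no MYT1L peak in any library, 1 of the 10 genes against 15.9% of all protein-coding genes. STMN1, MAPT and DCLK1 had peaks with every MYT1L library. MAP2 and MAP1B had them with 3 of the 4, and TUBB3, TUBB2B and STMN2 with 2. TUBA1A had them with MYT1L replicate 4 alone. By library, 6, 4, 6 and 9 of the 10 genes had a peak in MYT1L replicates 1 to 4. Over all protein-coding genes the shares were 68.0%, 43.0%, 57.3% and 77.6%. In replicate 2 the DCLK1 peaks were a peak at the place of the IgG peak and another with a fold of 4.22 and a pileup of 5. A region, made of MYT1L peaks joined by at least 1 shared base, was called reproducible when it held peaks of at least 3 MYT1L libraries and no IgG peak. STMN1, MAP2, MAPT and DCLK1 had 1 such region each, so 4 of 10 genes were called, against 48.0% of all protein-coding genes. All 4 also counted when the region had to lie within 5 kb of a gene end, a rule met by 44.2% of protein-coding genes. A share of 4 in 10 is near both backgrounds and is no result about these genes.

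**Figure D1:**
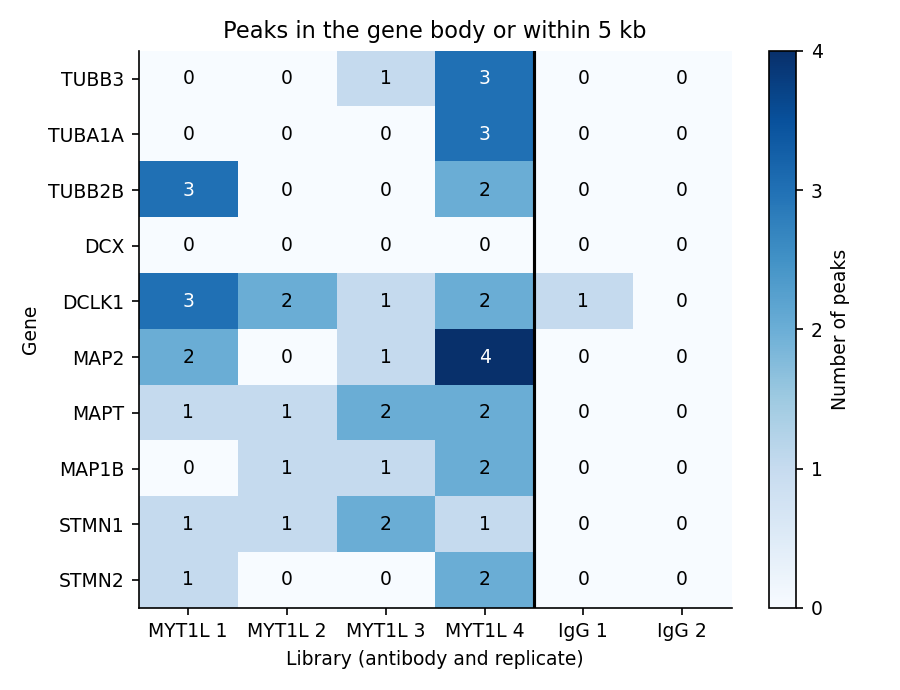
Number of peaks in the gene body or within 5 kb of it, for each of the 10 genes (rows) in each of the 4 MYT1L and 2 IgG libraries (columns, split by the vertical line). MYT1L replicate 4 has the most peaks (21 in total), the DCX row is 0 throughout, and the only IgG peak is at DCLK1.

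Per library, the 10 genes together had 11, 5, 8 and 21 peaks in MYT1L replicates 1 to 4, and 1 and 0 in IgG replicates 1 and 2. The groups did not overlap, and the same held over all protein-coding genes. There the MYT1L libraries had 0.629 to 1.53 peaks per 100 kb of window, and IgG replicates 1 and 2 had 0.0202 and 0.0337. At the 10 genes MYT1L replicate 4 held nearly as many peaks as the other 3 MYT1L libraries together. The mean counts at these genes were 11.2 ± 6.95 (SD, n = 4) and 0.5 ± 0.707 (SD, n = 2). Depth moved with this difference, and its part in the counts was not tested beyond the thinning that follows. Thinned to the depth of IgG replicate 1, the MYT1L libraries were expected to keep 2.71, 2.53, 1.15 and 9.93 of these peaks. The mean was 4.08 per library, against the 1 peak seen in that control. The expected counts ranged widely, and that of MYT1L replicate 3 was close to the single peak of the control. By gene, summed over the 4 MYT1L libraries, the expected number ran from 0.491 (TUBA1A) to 3.82 (DCLK1) among genes with a peak. Part of the DCLK1 number lay at the position of the control's own peak.

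Gene by gene, only STMN1 and MAPT had more peaks in every MYT1L library than in either IgG library, 2 of 10 against 30.6% of all protein-coding genes. For each of these genes the exact permutation test over libraries gave p = 0.133 (two-sided, unadjusted), the smallest value that 4 libraries against 2 allow. The other genes with a peak gave 0.267 to 1.0. No gene could therefore pass 0.05 in this design. With less support demanded, 8 of the 10 genes had a region in at least 2 MYT1L libraries without an IgG peak, against 65.3% of all genes.

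Gene length bears on these counts, since a longer window can hold more peaks. TUBB2B and TUBA1A, the genes under 10 kb, were not called, as against 30.9% called among all protein-coding genes of that size. Of STMN1 and TUBB3, at 10 to 50 kb, STMN1 was called (48.0% of genes of that size). Among the 4 genes of 50 to 150 kb MAPT was called and MAP1B, STMN2 and DCX were not (60.9% of genes of that size). MAP2 and DCLK1, both over 150 kb, were called, as were 69.2% of such genes. Per 100 kb of window the members had 0.896, 0.407, 0.652 and 1.71 peaks in MYT1L replicates 1 to 4, and all protein-coding genes together 1.30, 0.629, 0.931 and 1.53. The ratio was 0.691, 0.647, 0.700 and 1.12, with a mean of 0.789 ± 0.220 (SD, n = 4). Peaks were thus sparser at these genes than over protein-coding genes in 3 libraries and denser in MYT1L replicate 4. Counted only within 1 kb of gene ends, where the long gene bodies play no part, the mean ratio was 1.29, with libraries between 0.957 and 1.76.

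Summits were set against transcription starts. The RefSeq promoter table of GRCh38.p14 gives transcription starts for 8 of the 10 genes (not MAPT and STMN2) and for 15843 of the protein-coding genes. Of 36 summits at those 8 genes, 19 (52.8%) lay within 1000 bp of a start of the gene. Over all protein-coding genes, 50.2% of MYT1L summits lay that close to a protein-coding start. That share includes summits at genes without a start in the promoter table, and counts the start of any protein-coding gene. The shares of members and of all genes are therefore not on the same base. By library the members' shares were 55.6%, 25.0%, 66.7% and 52.9% in MYT1L replicates 1 to 4, against 45.3%, 54.0%, 53.1% and 51.0% over all genes. Replicate 2 was the only library with the lower share at the members. Few peaks stand behind the members' share of any library, and the fewest behind that of replicate 2. Peaks of several libraries at the same start count separately among the 36. The table's starts of MAP2 do not include the outer 5′ end of the gene, so summits there are not among the 19. Exon and intron positions are not in the tables used here.

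**Figure D2:**
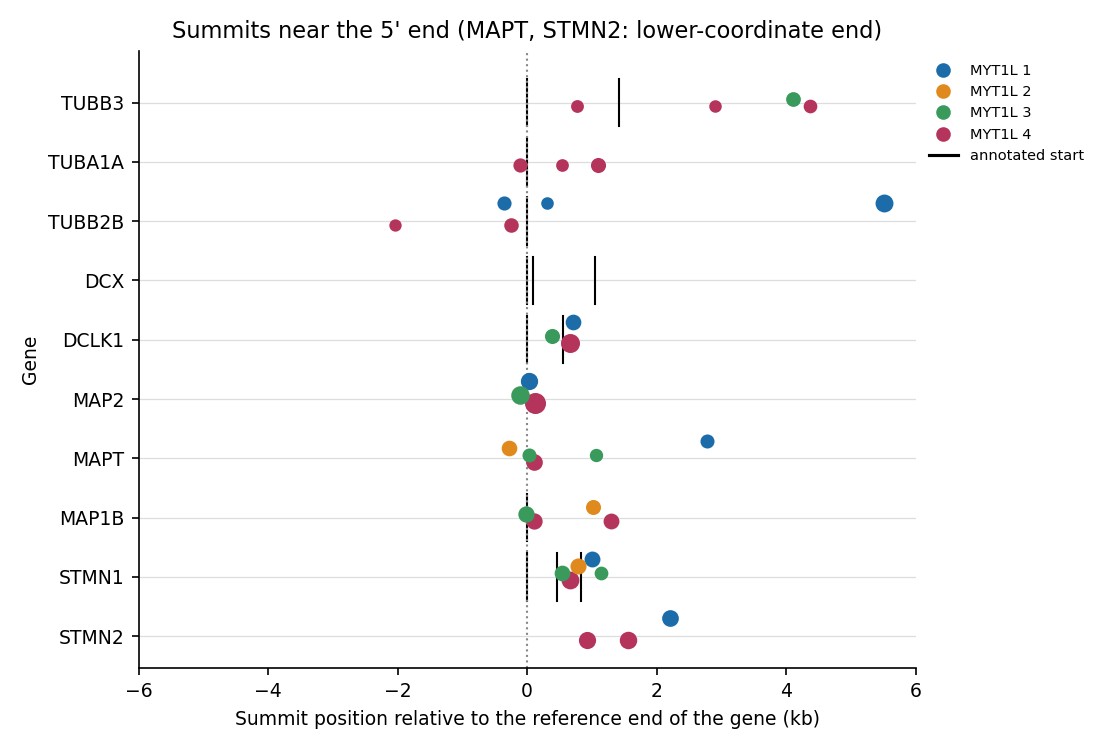
Summit positions (points, area proportional to the deposited fold, colour by MYT1L library) in kb from the outer 5′ end of each gene, or from the lower-coordinate end for MAPT and STMN2, whose strand the tables do not give. Short vertical lines are annotated starts, and positive values lie inside the gene. Points gather at the end of MAP2 and at an inner start of DCLK1, DCX has none, and the TUBB3 position seen in 2 libraries lies inside the gene. Summits beyond 6 kb are not drawn.

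Tubulins come first. TUBB3, the beta tubulin used as a marker of neurons, lies on chromosome 16 from 89921925 to 89936097. It had 0, 0, 1 and 3 peaks in MYT1L replicates 1 to 4 and none with IgG. The only position shared by libraries was a region from 89925786 to 89926462, 3861 bp from the nearest gene end, with folds of 4.62 in replicate 3 and 3.86 in replicate 4. The other peaks belonged to replicate 4 alone, with folds of 3.32 and 3.13. The local background under the replicate 4 peaks was 8.44 to 9.33 times its genome-wide level, so a pileup of up to 32 fragments gave only these low folds. This was not particular to TUBB3. Over all replicate 4 peaks at the members the ratio ran from 1.36 (MAP2) to 9.62 (TUBB2B), and in the other MYT1L libraries it reached at most 4.00.

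TUBA1A, a major alpha tubulin of young neurons, lies on chromosome 12 from 49184795 to 49189080. Its 3 peaks all came from MYT1L replicate 4, with folds of 4.85, 3.25 and 4.24 and pileups of 20, 13 and 17. One of them, from 49188919 to 49189280, covered the annotated start. With peaks in 1 library the gene has no replicate support.

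TUBB2B, a beta tubulin of the developing cortex, lies on chromosome 6 from 3224277 to 3227653. It had 3 peaks in MYT1L replicate 1, 2 in replicate 4 and none in the other 4 libraries. A region from 3227302 to 3228470 spanned its start, with a highest fold of 4.19 in replicate 1 and of 4.46 in replicate 4, a mean of 4.32 ± 0.192 (SD, n = 2). The start itself lay under the peak of replicate 4, and between the 2 peaks of replicate 1. The highest fold at the gene, 7.20, belonged to a narrow peak of replicate 1 alone, 2045 bp from the nearest end. Tubulin genes share nearly identical coding sequence, and how reads that match several copies were counted is not given in the sources used here.

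The doublecortin-domain genes differed from each other. DCX, the X-linked gene of doublecortin, lies on chromosome X from 111293779 to 111412192. None of the 6 libraries had a peak in its body or within 5 kb. The share of protein-coding genes without a MYT1L peak was 30.8% on chromosome X against 15.1% on chromosomes 1 to 22. Among genes of 50 to 150 kb these shares were 17.3% and 5.84%. The part of the chromosome in the lack of peaks at DCX was not tested.

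DCLK1 encodes a kinase with doublecortin domains and lies on chromosome 13 from 35768652 to 36131939. It had 3, 2, 1 and 2 peaks in MYT1L replicates 1 to 4 and 1 in IgG replicate 1. Its reproducible region, from 36130621 to 36131653, covered 1 of its annotated starts, with folds of 5.34, 4.84 and 8.24 in replicates 1, 3 and 4. The mean was 6.14 ± 1.84 (SD, n = 3), with pileups of 13, 12 and 28, and replicate 4 stood above the other libraries.

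Deep in the DCLK1 body, 173642 bp from the nearest end, lay the region with the highest mean fold at any of the 10 genes. It ran from 35958013 to 35958297 with folds of 12.25, 6.33 and 10.45 in MYT1L replicates 1, 2 and 4, a mean of 9.68 ± 3.04 (SD, n = 3). IgG replicate 1 had a peak at the same place, with a fold of 5.14 and a pileup of 6, and its summit was 10 to 51 bp from the MYT1L summits. The position is therefore shared with the control and was not counted as reproducible. DCLK1 was the only one of the 10 genes with an IgG peak, against 4.16% of all protein-coding genes.

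MAP2 encodes the microtubule-associated protein of dendrites and lies on chromosome 2 from 209424047 to 209734112. It had 2, 0, 1 and 4 peaks in MYT1L replicates 1 to 4 and none with IgG. At its outer 5′ end a region from 209423665 to 209424549 had folds of 6.64, 7.79 and 10.35 in replicates 1, 3 and 4. This was the strongest reproducible region of the 10 genes, at 8.26 ± 1.90 (SD, n = 3) with pileups of 16, 18 and 36. Ranked by deposited q-value, its peaks stood at the top 19.9%, 11.6% and 9.81% of the lists of replicates 1, 3 and 4, and replicate 2 had no peak there.

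MAP2 also carried peaks at starts inside the gene. A region from 209579345 to 209579699, 154413 bp from the nearest gene end, covered an annotated start and had folds of 6.87 in MYT1L replicate 1 and 10.44 in replicate 4. A peak of replicate 4 from 209661465 to 209661706 covered another start, with a fold of 6.65. Replicate 4 thus had peaks at 3 separate 5′ ends of MAP2 transcripts or of the gene, of which the outer one was seen in 3 libraries.

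MAPT encodes tau, the microtubule-associated protein of axons, and lies on chromosome 17 from 45894554 to 46028334. It had 1, 1, 2 and 2 peaks in MYT1L replicates 1 to 4. The reproducible region, from 45894109 to 45895809, covered the lower-coordinate end of the gene and had highest folds of 5.29, 4.12 and 6.10 in replicates 2, 3 and 4, a mean of 5.17 ± 0.997 (SD, n = 3). The peak of replicate 1 lay elsewhere, 2623 bp from that end, with a fold of 4.12. The long noncoding genes MAPT-AS1 and MAPT-IT1 lie within 1 kb of the region, so it cannot be assigned to MAPT alone. When summits had to lie within 200 bp of each other, neither the MAPT nor the DCLK1 region was reproducible.

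MAP1B, a microtubule-associated protein of growing axons, lies on chromosome 5 from 72107475 to 72209565 and had 0, 1, 1 and 2 peaks in MYT1L replicates 1 to 4. They formed a pair of adjacent regions that did not touch. The first, from 72106992 to 72107837, covered the start and had folds of 5.86 in replicate 3 and 5.80 in replicate 4. The second, from 72108052 to 72108928, had folds of 4.80 in replicate 2 and 5.45 in replicate 4. Peaks of 3 libraries thus lay within 2 kb at the start of MAP1B, yet neither region held more than 2 libraries, and the gene was not called. The long noncoding gene LOC105379028 lies within 1 kb of both.

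STMN1 encodes stathmin, which binds tubulin dimers and promotes disassembly of microtubules, and lies on chromosome 1 from 25884179 to 25906880. It had 1, 1, 2 and 1 peaks in MYT1L replicates 1 to 4 and none with IgG. All 5 peaks fell into 1 region from 25905531 to 25906893, which covered all 3 annotated starts. It was the only region of the 10 genes with peaks in all 4 MYT1L libraries. Its highest folds per library were 5.49, 5.63, 5.35 and 7.11, a mean of 5.89 ± 0.819 (SD, n = 4), with pileups of 18, 10, 13 and 32. Replicates 1 to 3 were close to each other and replicate 4 was higher. The microRNA gene MIR3917 and the noncoding gene LOC105376885 lie within 1 kb of it.

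STMN2 encodes a stathmin of growing axons and lies on chromosome 8 from 79611117 to 79666158. It had 1, 0, 0 and 2 peaks in MYT1L replicates 1 to 4. A region from 79612585 to 79613544, 1468 bp from the lower-coordinate end, had folds of 6.15 in replicate 1 and 6.82 in replicate 4. A further peak of replicate 4 had a fold of 6.56. These folds lay within the range of the STMN1 region, but came from 2 libraries.

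**Figure D3:**
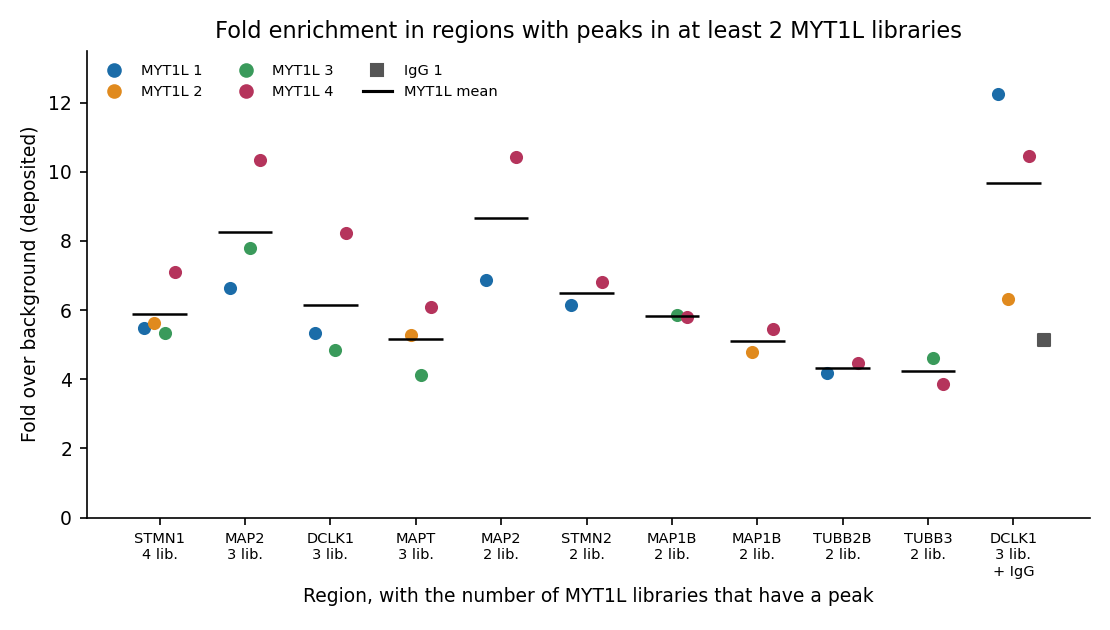
Deposited fold over background (linear axis) in each MYT1L library for the regions of the 10 genes with peaks in at least 2 MYT1L libraries. Points are libraries, black lines the mean over libraries with a peak, and the square is IgG replicate 1. MYT1L replicate 4 (red) is present in all 10 regions without IgG peak and highest in 8 of them. The same counts over all regions were not made.

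Across the 10 genes there were 25 MYT1L regions. A single library accounted for 14 of them, and in 10 of these it was MYT1L replicate 4. Another 6 regions rested on 2 libraries, 4 on 3 and that of STMN1 on all 4. All 10 regions with at least 2 libraries and no IgG peak included replicate 4, and its fold was the highest in 8 of them. The same shares over all regions were not counted, so these counts are no trait of the 10 genes. Replicate 4 had the longest list and a peak at 77.6% of protein-coding genes, against 43.0% to 68.0% in the other MYT1L libraries. Leaving out replicate 4 and asking for 2 of the other 3 libraries called STMN1, MAP2, MAPT and DCLK1, 4 of 10 genes against 49.3% of all protein-coding genes. A region of at least 3 libraries keeps at least 2 without replicate 4, so the calls of these 4 genes were nearly fixed beforehand. They do not measure how far the calls depend on replicate 4. Leaving out replicate 2, which had no peak at 6 of the 10 genes, called 8 genes, against 63.3% of all protein-coding genes under that rule.

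The promoter table holds windows of 300 bases, from 250 before a start to 50 from it on. The outer 5′ end of MAP2, the shared region of TUBB3 and all peaks of MAPT and STMN2 lie outside the windows of these genes. It has 18 windows for 8 of the genes, and 10 of the 18 were overlapped by a peak of at least 1 MYT1L library, against 58.7% of 22199 windows of protein-coding genes. At least 3 libraries overlapped 3 of the 18, against 31.6%. No window was overlapped by an IgG peak. The windows below are those with peaks in the most libraries at STMN1, DCLK1, MAP2 and TUBB2B, and, for contrast, a window without any peak from TUBB3 and one from DCX. They are RefSeq sequence of GRCh38.p14, written 5′ to 3′ on the strand of the gene, and capitals mark AAGTT or its reverse complement AACTT.

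STMN1, chr1:25905996-25906295, minus strand: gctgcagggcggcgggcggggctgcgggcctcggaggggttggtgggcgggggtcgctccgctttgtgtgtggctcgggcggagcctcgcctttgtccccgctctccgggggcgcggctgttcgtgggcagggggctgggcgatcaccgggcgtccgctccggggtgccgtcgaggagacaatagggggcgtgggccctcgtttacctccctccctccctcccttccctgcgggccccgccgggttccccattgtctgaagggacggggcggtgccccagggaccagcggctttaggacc
DCLK1, chr13:36131333-36131632, minus strand: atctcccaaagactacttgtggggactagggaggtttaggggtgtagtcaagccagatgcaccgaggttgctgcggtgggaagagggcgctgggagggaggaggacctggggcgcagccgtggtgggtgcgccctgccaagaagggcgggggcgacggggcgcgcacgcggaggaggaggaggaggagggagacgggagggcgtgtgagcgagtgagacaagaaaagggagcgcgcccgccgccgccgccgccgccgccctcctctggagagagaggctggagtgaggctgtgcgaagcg
MAP2, chr2:209579357-209579656, plus strand: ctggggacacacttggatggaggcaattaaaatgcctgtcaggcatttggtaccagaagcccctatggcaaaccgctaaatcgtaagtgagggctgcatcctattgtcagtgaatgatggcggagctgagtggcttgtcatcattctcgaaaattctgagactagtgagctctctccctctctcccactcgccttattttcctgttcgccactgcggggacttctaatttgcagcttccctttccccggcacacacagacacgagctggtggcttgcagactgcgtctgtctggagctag
TUBB2B, chr6:3227604-3227903, minus strand: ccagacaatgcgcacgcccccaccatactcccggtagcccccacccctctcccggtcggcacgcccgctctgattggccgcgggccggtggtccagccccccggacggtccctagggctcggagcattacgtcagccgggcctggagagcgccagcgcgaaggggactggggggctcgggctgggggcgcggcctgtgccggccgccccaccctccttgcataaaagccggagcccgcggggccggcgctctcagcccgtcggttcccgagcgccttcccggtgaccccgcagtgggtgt
TUBB3, chr16:89923092-89923391, plus strand: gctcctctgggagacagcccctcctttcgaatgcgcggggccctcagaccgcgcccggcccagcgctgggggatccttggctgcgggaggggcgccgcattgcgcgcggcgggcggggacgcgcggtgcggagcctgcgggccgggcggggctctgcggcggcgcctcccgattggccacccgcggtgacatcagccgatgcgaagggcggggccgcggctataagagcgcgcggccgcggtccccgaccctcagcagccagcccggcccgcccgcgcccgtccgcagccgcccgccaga
DCX, chrX:111411097-111411396, minus strand: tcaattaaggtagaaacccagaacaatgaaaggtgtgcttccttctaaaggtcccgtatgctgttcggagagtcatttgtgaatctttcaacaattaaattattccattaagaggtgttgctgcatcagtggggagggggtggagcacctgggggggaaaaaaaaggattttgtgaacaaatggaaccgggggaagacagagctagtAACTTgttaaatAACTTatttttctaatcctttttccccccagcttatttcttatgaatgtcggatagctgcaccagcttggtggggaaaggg

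STMN1's window had peaks in 4 MYT1L libraries, DCLK1's in 3, MAP2's and TUBB2B's in 2, and those of TUBB3 and DCX in none. At TUBB2B the overlap with replicate 1 was a single base. GC content was 74.3% in the STMN1 window, 69.0% in DCLK1, 52.3% in MAP2, 74.7% in TUBB2B, 79.0% in TUBB3 and 43.0% in DCX. The DCX window was the only one of these 6 with AAGTT or AACTT, which it held at 2 places. Over the 18 windows, 2 held the motif on either strand, that of DCX and one of MAP2 that starts at 209579082, and 30% of all protein-coding windows did. The MAP2 window with the motif was overlapped by a peak of MYT1L replicate 4, and the other DCX windows held no motif. The longer form AAAGTT, which contains AAGTT, was in none of the 18 and in 10.8% of all windows, counted on both strands. These are matches of letters in windows of 300 bases and not binding sites.

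GC content moved with the presence of peaks over all genes. At least 1 MYT1L library had a peak on 7.66% of windows under 50% GC, on 55.3% at 50% to 65% GC and on 85.6% at 65% or more. The 3 windows of DCX had 43.0% to 45.0% GC and no peak. MAP2 had a peak of replicate 4 on windows of 40.0% and 45.3% GC, a class in which few windows had one. The first of these was overlapped only at its edge, by a peak whose summit was nearer the next start. TUBB3 had the opposite: its window of 79.0% GC had no peak, in a class where most did. Peaks of replicate 4 lay on both sides of that window, with summits at -645 bp and 1486 bp from its start. Among windows of 65% GC or more, at least 3 libraries had a peak on 47.2% of those with the motif AAGTT and on 51.6% of those without. At 50% to 65% GC the shares were 25.1% and 26.3%. Under 50% GC, the class of both member windows with the motif, they were 0.986% and 1.77%. The share was lower with the motif in each class. The part of base composition in the results for single genes was not tested.

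**Figure D4:**
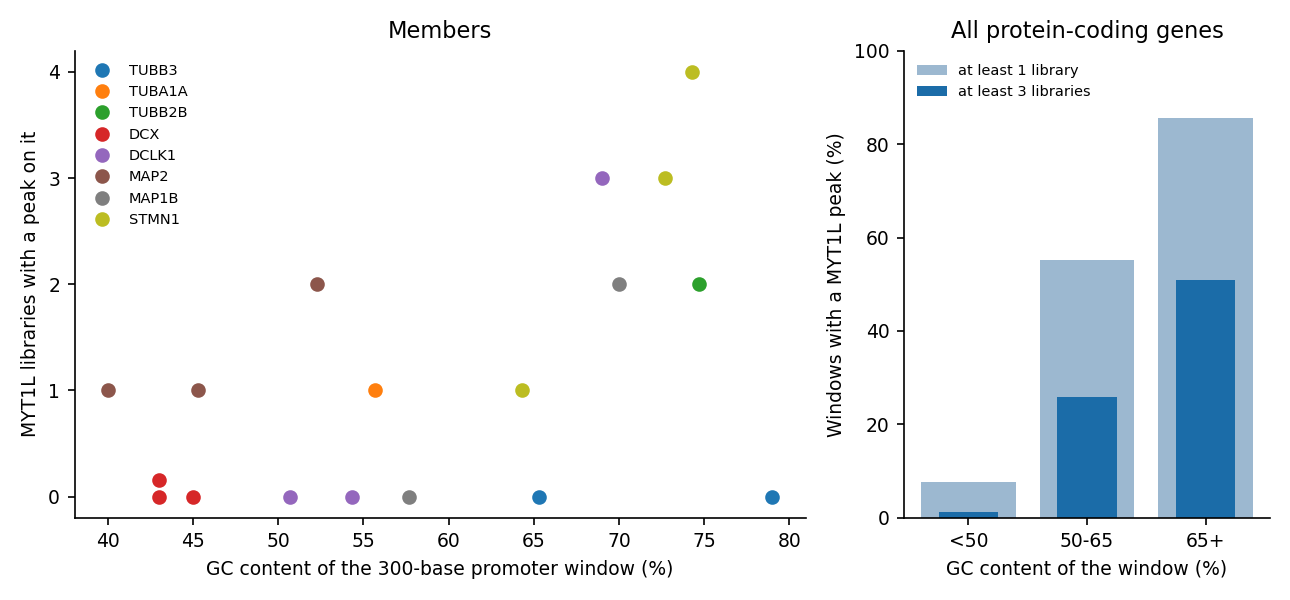
Left, GC content (%) of each 300-base promoter window of the 8 genes with annotated starts against the number of MYT1L libraries with a peak on it (points raised slightly where they would coincide). Right, share of all protein-coding windows with a MYT1L peak, by GC class: light bars at least 1 library, dark bars at least 3. DCX sits at low GC without a peak, MAP2 has peaks at low GC, and TUBB3 has none at 79.0% GC.

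Other genes of the microtubule system were described from a list of 75: further tubulins, the gamma tubulin complex, other microtubule-associated proteins and stathmins, tubulin-folding, tubulin-modifying and severing proteins, dynein and kinesins. Of these, 59 (78.7%) were called, against 4 of the 10 neuronal genes and 48.0% of all protein-coding genes. The difference between the lists was not tested. None of the 75 lacked a MYT1L peak. The median gene had 5.0 MYT1L peaks over the 4 libraries, against 4.5 for the 10 genes and 3.0 for all. Median length was 54.3 kb in the 75, 78.6 kb in the 10 and 24.1 kb in all genes.

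By role, 10 of 10 tubulin-modifying genes were called, 8 of 9 of dynein and its regulators, 8 of 10 kinesins, 5 of 6 gamma tubulin complex genes, 5 of 6 severing genes, 4 of 5 tubulin-folding genes and 13 of 18 other microtubule-associated protein genes. Of the further tubulins 5 of 9 were called, against 48.0% of all protein-coding genes. TUBA1B, TUBA4A, TUBB, TUBB2A and TUBB4A were called, and TUBA1C, TUBA8, TUBB4B and TUBB6 were not. The 5 called tubulins and TUBB4B are under 10 kb, a size at which 30.9% of protein-coding genes were called. TUBA1C, TUBA8 and TUBB6 are of 10 to 50 kb, where the share was 48.0%. The difference from these shares was not tested. Of the other stathmins, STMN3 was called and STMN4 was not. TUBB2A, close in sequence to TUBB2B, had 0, 1, 1 and 2 peaks in MYT1L replicates 1 to 4, where TUBB2B had 3, 0, 0 and 2.

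The highest mean fold at a gene end in the 75 was at TTLL7, a tubulin polyglutamylase (8.77 ± 2.92, SD, n = 4). It was followed by MAP9, a microtubule-associated protein of the spindle (8.70 ± 4.22, n = 4), CLASP2, which binds microtubule plus ends (8.65 ± 3.23, n = 4), and VASH1, a tubulin carboxypeptidase (8.51 ± 0.878, n = 3). Next came the kinesin KIF21A (8.35 ± 1.40, n = 4), the plus-end protein MAPRE1 (8.31 ± 5.40, n = 3) and the kinesin KIF3A (8.26 ± 1.85, n = 4). AGTPBP1, a deglutamylase, had 8.06 ± 2.36 (n = 3), the katanin-like KATNAL1 8.03 ± 3.32 (n = 4) and the folding cofactor TBCA 7.97 ± 1.59 (n = 4). The MAP2 region, at 8.26 ± 1.90, lay within the range of these highest genes, and those of STMN1, DCLK1 and MAPT below it. Over all genes of the list called at an end, the mean folds ran from 5.05 (STMN3) to 8.77. That wider range holds the regions of STMN1, DCLK1 and MAPT too.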

How the data were processed

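The 6 libraries (4 MYT1L, 2 IgG) were grouped and numbered by sample title. Names of MYT1L peaks hold sample numbers that differ from the titles, and the titles were followed. Peaks were called with MACS2 on hg38, per the submitters' processing notes; version, aligner, threshold and control are not given in the sources used here. Each deposited peak has a fold (a ratio over local background), a −log10 p, a −log10 q and a score, all the authors' values per peak. The deposited q-values start at 2.00 to 2.01 on the −log10 scale, and the score rises with that value. Depth and pileups assume the formulas of MACS, with 1 added to pileup and background in the fold, and a Poisson tail for p. A whole pileup rebuilt the deposited −log10 p within 0.0002 for at least 99.8% of peaks per library. Fragment length came from the step of backgrounds over 10 kb.

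Regions were built with Python 3.11.15, and tests used scipy 1.17.1. Pileup recovery, thinning, regions and overlaps were checked on 2946 simulated peaks and against bedtools 2.31.1. Thinning drew each pileup binomially to the depth of IgG replicate 1 and asked whether it passed that list's lowest −log10 p of 5.54. Members, lists and alternatives were chosen with earlier results of these data known. The named genes are all 10 members and the 10 highest mean folds at an end among the called genes of the longer list. Alternatives varied the −log10 q threshold, the number of libraries, the peaks per library, the overlap, the IgG rule, the window, the depth and the libraries used. Antibody and depth cannot be told apart in the deposited counts of peaks, since both IgG libraries were the shallowest.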

Additional observations from a re-analysis of the deposited data

Results flagged for a closer look

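In 14 sets of 4 MYT1L values, a library was set apart where its gap to the nearest other, divided by the whole range, passed Dixon's critical value for sets of 4. Chance alone gives this in about 1 in 20 sets, and small whole numbers give it easily. MYT1L replicate 4 stood apart in 3 of the 4 cases found. It was the only library with peaks at TUBA1A (3, against 0 in the others). Its ratio of peak density at the members to that at all protein-coding genes was 1.12, against 0.647 to 0.700. Its fold in the STMN1 region was 7.11, against 5.35 to 5.63. The fourth case was STMN1 itself, with 2 peaks in MYT1L replicate 3 and 1 in each other MYT1L library.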

How the results depend on the processing

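The 4 members called became 8 with at least 2 libraries, 1 with all 4 (STMN1) and 2 with summits within 200 bp (MAP2 and STMN1), and ranged from 4 to 8 over the fits without one library. Calls at a gene end gave these same counts and range, and 2 at −log10 q 5 or higher, where 3 genes were called in all; there DCLK1 was called through its inner region, whose IgG peak had dropped out. The 4 regions became 10 with at least 2 libraries, 1 with all 4 and 2 with summits within 200 bp, and ranged from 4 to 9 over the fits without one library. Fits without a MYT1L library asked for 2 of 3. A region of 3 libraries passes that rule unless the peak left out alone joined the others. Those fits could therefore hardly fall below the main counts. The background share of genes moved too, from 48.0% to 65.3% with at least 2 libraries and 25.3% with all 4. It was 37.7% with summits within 200 bp and 30.6% at −log10 q 5 or higher. For gene ends the share was counted under the main rule only. The 2 genes with more peaks in every MYT1L library than in either IgG library became 0 at −log10 q 5 or higher and 1 with equal numbers of top peaks. Shares of all genes under these settings were not counted. The mean difference of 10.8 peaks was 7.50 without MYT1L replicate 4 and fell to 3.58 after thinning to the depth of IgG replicate 1. That 3.58 sets a thinned mean of 4.08 against 0.5, the mean of both IgG libraries. IgG replicate 2 was shallower than the depth used, and IgG replicate 1, the control of that depth, had 1 peak. The density ratio of 0.789 was 1.21 against whole chromosomes and 1.29 at gene ends only. The count of other microtubule genes called, 59, stayed between 43 and 67, and the mean fold of the 4 reproducible regions, 6.37, between 5.62 and 6.76, in all their alternatives.

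Replicate numbers 1 and 2 are shared by the groups, but nothing says that they pair libraries. Across genes the deviations of same-numbered libraries correlated at 0.00 and 0.01. These values could hardly show a pairing, since IgG replicates 1 and 2 had a peak at only 1.61% and 2.9% of protein-coding genes. The deviations of the IgG libraries also mirror each other by construction. Whether the libraries are paired is therefore unknown. With these numbers as a replicate block the mean difference was 7.50 peaks and 3 genes were higher in both pairs, a count without a share over all genes beside it. Total reads are unknown, and a missing peak at 0.950 to 5.99 background fragments per kb does not show absence of MYT1L.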
